A study of Rattus norvegicus with 8 samples.

Results

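Among the probes furthest below their sham level in skin of rats treated with streptozotocin (STZ) were several genes that encode neither keratins nor keratin-associated proteins. Of these, 7 genes were followed, Actbl2, Entpd3, Kcne1, Fbp1, Dsg4, Gprc5d and Crym, all chosen by their large negative STZ minus sham difference on these same arrays. Their probes were found through the RefSeq accession of each probe. Each of 6 matched 1 probe of the 24684 measured, printed as 1 spot. No probe was matched to Crym, which was therefore not analysed here. The group difference below chose the genes, so it is given as a description and is not tested.

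Male Sprague-Dawley rats gave full-thickness skin, whose total RNA was hybridised to 1-colour Agilent arrays. STZ, which destroys pancreatic beta cells, was injected intraperitoneally at 60 mg/kg at 4 weeks of age, sham rats received sodium citrate solution, and skin was taken at 8 weeks. The labels list 4 samples per group, but replicates 1 and 3, and 2 and 4, of each group were 2 scans of 1 array. They are counted here as array 1 (replicates 1 and 3) and array 2 (replicates 2 and 4) of each group, so n = 2 arrays per group. STZ acts as a chemical model of insulin deficiency. No blood glucose value of any rat was used here. The labels mention wounding without saying whether this skin came from a wound site. They do not say how many rats gave each RNA, so the spread between arrays may be partly technical.

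The hair follicle builds a shaft of cross-linked keratins inside an inner root sheath, and both are made by cells that leave the hair matrix during the growth phase. Besides keratins, these cells need adhesion molecules, membrane proteins and enzymes. Dsg4 encodes desmoglein 4, a desmosomal cadherin of the hair shaft whose loss gives lanceolate hair in rodents and a hereditary hair disorder in people. Gprc5d encodes an orphan receptor known from the cells of hard keratinised structures and from plasma cells. Actbl2 encodes a beta-actin-like protein, and Kcne1 the small subunit that slows the gating of the potassium channel Kcnq1. Entpd3 encodes an ectonucleotidase that splits extracellular ATP, and Fbp1 fructose-1,6-bisphosphatase, a gluconeogenic enzyme.

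The stretch before the transcription start was compared between the genes, to see what sequence they share there. The 250 bases upstream of the start were read from RefSeq's promoter windows on rat build GRCr8, where 6 of 6 genes matched. The windows of 4 genes are shown: Dsg4 and Gprc5d, which shared a pattern across the STZ arrays (below), Actbl2, with the largest difference, and Entpd3, with the smallest. Each is written 5′ to 3′ on the gene's own strand, with the motifs searched in capitals.
Dsg4, chr18:11995652-11995901, plus strand: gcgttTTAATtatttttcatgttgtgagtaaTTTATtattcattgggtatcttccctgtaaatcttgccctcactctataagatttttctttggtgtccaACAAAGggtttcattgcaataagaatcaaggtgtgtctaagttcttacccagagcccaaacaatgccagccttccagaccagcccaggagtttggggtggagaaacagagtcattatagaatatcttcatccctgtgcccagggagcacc
Gprc5d, chr4:169686966-169687215, minus strand: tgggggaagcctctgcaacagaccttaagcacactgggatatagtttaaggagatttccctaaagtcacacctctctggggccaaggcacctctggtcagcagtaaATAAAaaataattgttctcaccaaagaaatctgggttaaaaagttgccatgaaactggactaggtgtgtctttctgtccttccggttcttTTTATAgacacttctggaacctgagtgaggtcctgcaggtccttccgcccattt
Actbl2, chr2:44591141-44591390, plus strand: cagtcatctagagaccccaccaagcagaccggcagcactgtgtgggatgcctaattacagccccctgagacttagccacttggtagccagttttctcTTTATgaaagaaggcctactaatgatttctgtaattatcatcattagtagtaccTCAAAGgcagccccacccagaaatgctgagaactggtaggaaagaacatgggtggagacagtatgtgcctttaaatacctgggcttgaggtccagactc
Entpd3, chr8:129124459-129124708, plus strand: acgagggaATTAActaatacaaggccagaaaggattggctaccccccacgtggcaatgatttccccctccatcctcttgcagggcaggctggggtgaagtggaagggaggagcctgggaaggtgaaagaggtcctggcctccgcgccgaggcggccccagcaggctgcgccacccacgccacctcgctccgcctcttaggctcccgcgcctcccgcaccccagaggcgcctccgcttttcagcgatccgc
Both strands were searched for 4 motifs. TATAAA is the TATA box, which only some promoters hold. Lef1 and Tcf factors were searched as CTTTGA and also as CTTTGT. The core of Hoxc13 sites was searched as TTTAT and also as TTAAT. The core of Foxn1 sites was searched as GACGC. Lef1, Hoxc13 and Foxn1 are known regulators of hair differentiation.

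The upstream windows had little in common. Dsg4 held 1 Lef1-type match, which began 150 bases before the start, and 2 Hoxc13-type cores at 245 and 219 bases. Actbl2 also held 1 Lef1-type match, at 99 bases, and 1 Hoxc13-type core at 153 bases. Gprc5d held 2 Hoxc13-type cores, at 144 and 54 bases, and a TATAAA on the opposite strand that overlapped the latter. Entpd3 held 1 Hoxc13-type core, at 242 bases, while Kcne1 and Fbp1 held none of the 4 motifs, and no window of the 6 held GACGC. Matches of this length are common: 50.1% of all 33469 rat windows of this length held a Hoxc13-type core, 27.5% a Lef1-type match, 21.7% GACGC and 12.9% TATAAA. The GC content ran from 41.6% in Dsg4 to 65.2% in Entpd3, with 45.6% in Gprc5d, 47.6% in Actbl2, 57.6% in Kcne1 and 61.2% in Fbp1, around a median of 51.2% over all windows.

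Brightness differed between arrays: the 75th percentile of the spots was 1138 to 1496 intensity units on the sham arrays and STZ array 1, and 606.3 and 623.9 in the scans of STZ array 2. A probe was tested where 4 or more of the 8 files called it well above background, which left 21527 probes, the 6 genes among them. The rescans of an array differed with an SD of 0.0983 to 0.146 on the log2 scale, against 0.894 to 1.17 between the 2 arrays of a group. All 3 tested genes of basal epidermis and all 5 of fibroblasts were well above background in all 8 files. So were 19431 of the 21527 tested probes, so these markers cannot check the skin label. Levels are given as log2 intensity minus the 75th percentile of the array. On this scale the median probe was 0.23 higher in STZ (−0.04 after quantile normalization and −0.19 with scaling to the median spot), so every difference is given relative to the median probe and lies that much below the plain difference of the levels.

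All 6 genes were lower on each STZ array than on each sham array, and the probes of all 6 read well above background in all 8 files. Such a pattern, with both STZ arrays below both sham arrays, was seen in 17.9% of the tested probes, and the opposite one in 26.8%. By definition 50% of probes lay below the median probe. The choice of the genes used this contrast, so nothing is read from their count. The differences ran from −6.92 to −5.42 on the log2 scale with a median of −5.87, and 52 of the 21527 probes (0.242%) were lower by more than 5. In whole skin, fewer cells of a type and less RNA per cell cannot be told apart.

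Among the membrane proteins of the hair, Dsg4 had a level of 3.15 and 2.54 on sham arrays 1 and 2, and of −1.52 and −4.32 on STZ arrays 1 and 2. Its difference was −5.99 ± 1.0 (SE), or 63.7-fold lower. The STZ arrays were far apart, with array 2 much the lower. Gprc5d had a level of 5.88 and 5.74 in sham and of 0.67 and −1.97 in STZ. Its difference was −6.69 ± 0.93, or 103-fold lower. Its sham arrays were 0.14 apart, against 0.61 for Dsg4, and for both genes the STZ arrays were much further apart. In plain intensity, the Gprc5d probe read 67300 to 70500 in the sham files, 2360 on STZ array 1 and 157 on STZ array 2.

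Actbl2, the actin-like gene, had a level of 1.89 and 1.60 in sham and of −4.63 and −5.27 in STZ. The difference of −6.92 ± 0.47, or 121-fold lower, was the largest of the 6. Its STZ signals were the dimmest of the 6 genes' relative to background: on STZ array 2 it stood 1.14 log2 units above the lowest signal called well above background on that array, against 2.09 to 4.96 for the other 5. Kcne1, the channel subunit, had a level of 1.39 and 1.69 in sham and of −3.64 and −4.18 in STZ, a difference of −5.68 ± 0.46. Entpd3, the ectonucleotidase, had a level of 1.24 and 1.42 in sham and of −3.80 and −3.93 in STZ, a difference of −5.42 ± 0.42. For Entpd3 the arrays of each group were nearly alike. Fbp1, the gluconeogenic enzyme, had a level of 4.61 and 4.44 in sham and of −0.53 and −1.45 in STZ, a difference of −5.74 ± 0.51. With normexp background correction and quantile normalization together, the differences were smaller, from −6.45 for Gprc5d to −4.28 for Entpd3, and that of Actbl2 was −5.15. With quantile normalization alone they were −7.30 for Actbl2 and −5.50 for Entpd3.

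**Figure D1:**
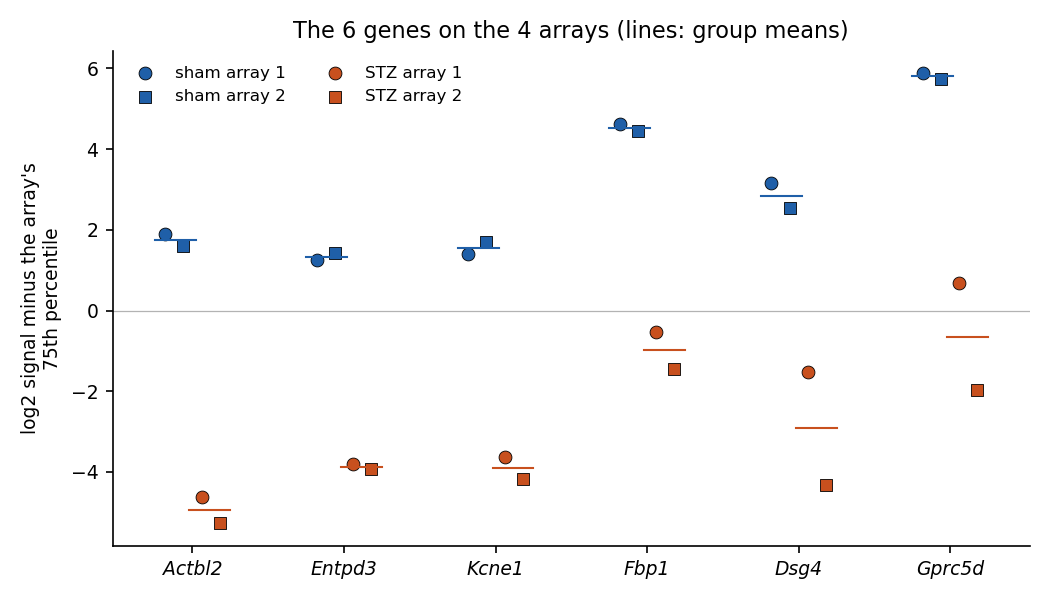
Levels of the 6 genes on the 4 arrays, as log2 signal minus the array's 75th percentile on the vertical axis. Circles are array 1 and squares array 2 of each group, sham in blue and STZ in orange, and lines are group means. The STZ points lie below the sham points for each gene, and those of Dsg4 (−1.52 and −4.32) and Gprc5d (0.67 and −1.97) are the furthest apart.

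The gap between the STZ arrays was not part of the rule that chose the genes, and it was larger for Dsg4 and Gprc5d than for the other 4. STZ array 1 minus STZ array 2 was 2.80 for Dsg4 and 2.64 for Gprc5d, above 99.7% and 99.6% of all tested probes. For Fbp1, Actbl2, Kcne1 and Entpd3 it was 0.92, 0.64, 0.54 and 0.13. Over all probes its median was −0.34, with 5% below −2.43 and 5% above 1.29. Of the 52 probes lower by more than 5, 29 had a gap over 2 and 16 a gap under 1, so both kinds occurred among the strongest differences. The 52 were not all hair genes. They held the red blood cell markers Slc4a1 (−6.97, gap 2.15) and Alas2 (−5.65, gap 0.61), and also Alb (−5.24, gap −1.80). All 4 tested red blood cell markers were below the median probe, with a median difference of −4.75 and a median gap of 0.32. As each STZ array is a single array, the gap carries no replicate error and was not tested. Dim signals also limit it. Actbl2, Kcne1 and Entpd3 were at −4.63, −3.64 and −3.80 on STZ array 1. The lowest signal called well above background on STZ array 2 was at −6.41, and a gap of 2.80 would have taken them below it. Fbp1, at −0.53 on STZ array 1, had room for such a gap. The part of brightness in the gaps was not tested. After quantile normalization the gap was 3.88 for Dsg4 and 2.99 for Gprc5d, and it was 2.34 for Actbl2 and 1.16 to 1.68 for Fbp1, Entpd3 and Kcne1. With normexp it was 2.29 for Dsg4, 2.58 for Gprc5d and 0.57 to 1.07 for the other 4. Dsg4 and Gprc5d had the largest gaps of the 6 under each of these scalings, while the distance of Actbl2 from them depended on the scaling. Set against both sham arrays, STZ array 1 alone gave a difference of −4.40 for Dsg4 and −5.17 for Gprc5d, and STZ array 2 alone gave −7.55 and −8.16.

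Many hair keratins also had a lower level on STZ array 2, though by amounts that varied widely. In a list of hair shaft genes, 11 of 13 tested members were lower in STZ at an unadjusted p under 0.05 (limma), a median difference of −6.15 over the list, and the gap had a median of 2.59. Among the 11 lower members it ran from 0.20 for Krt82 to 6.67 for Krt34, and 4 of them had a gap under 2. Krt82 was at −5.68 and −5.88 in STZ and above background in only 2 of the 4 STZ files, so dim signal limits its gap. The members that were not lower were Krt84 (0.48) and Lgals7 (0.29), the latter a galectin of all stratified epithelia. Krt84 was dim in sham already, at −6.49 and −6.64. The lowest signals called well above background there were at −7.63 and −7.52, so it had little room to fall. In the inner root sheath list 7 of 8 were lower, with a median difference of −6.71 and a median gap of 2.97 (2.24 to 6.18 among the 7), and the exception was Tgm3 (0.39), a transglutaminase that the epidermis also makes. Over all probes 3.52% were lower at this threshold, and the hair lists were drawn up with earlier results of these arrays known. None of these genes passed after adjustment over all probes (lowest adjusted p = 0.102). The summed level of the hair shaft list, in units of the 75th percentile, was 637 and 745 in sham and 195 and 256 in STZ. Most of the STZ sum was Lgals7, and without it the sums were 481 and 611 in sham and 25.5 and 3.15 in STZ. The inner root sheath list summed to 655 and 598 in sham and 160 and 60.1 in STZ, and without Tgm3 to 607 and 563 in sham and 90.3 and 2.86 in STZ. These 2 genes were left out after their values were seen. The regulators of the hair matrix had a smaller gap, with a median of 0.95. In that list 10 of 14 were lower at an unadjusted p under 0.05, among them Msx2 (−3.49 ± 0.45) and Dlx3 (−2.87 ± 0.42), homeobox factors, Foxn1 (−3.58 ± 0.59), a forkhead factor of the hair shaft that was above background in only 2 of the 4 STZ files, and the ligand gene Bmp4 (−3.53 ± 0.61). The part of hair cell number in the differences of the 6 genes was not tested.

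**Figure D2:**
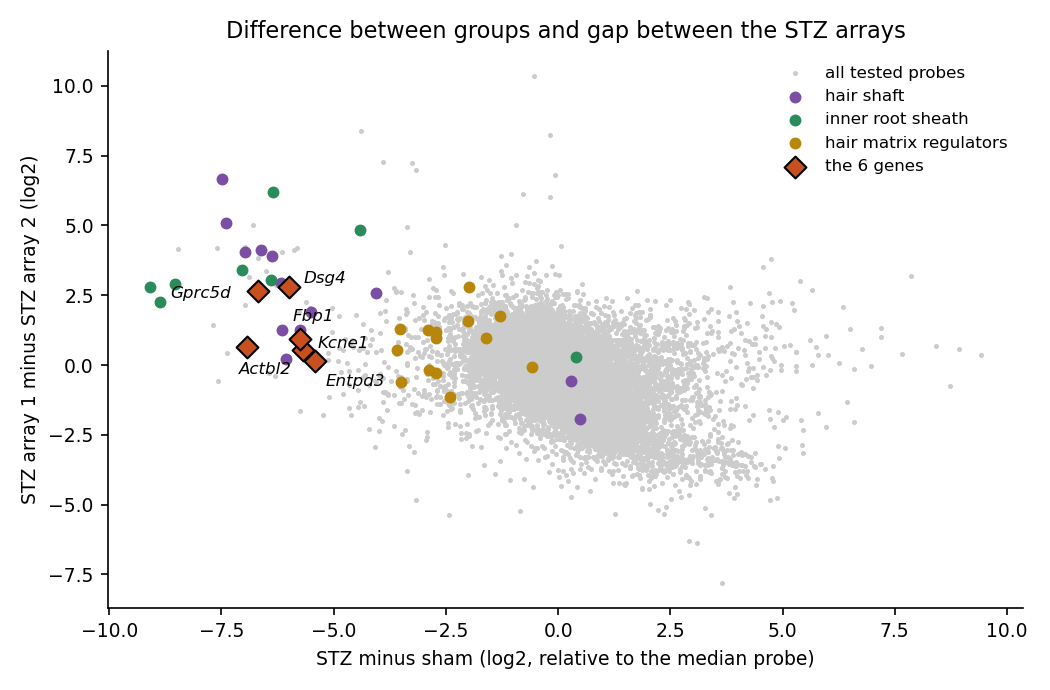
Each point is a probe, with its STZ minus sham difference (log2, relative to the median probe) on the horizontal axis and the level on STZ array 1 minus that on STZ array 2 (log2) on the vertical axis. Diamonds are the 6 genes, coloured circles 3 hair lists and grey points all 21527 tested probes. Dsg4 and Gprc5d lie at gaps of 2.80 and 2.64, and the other 4 lie between 0.13 and 0.92. Genes of the hair lists lie near both sets, such as Padi3 (3.04) near the first. Krt82 (0.20) lies within the range of the second and S100a3 (1.26) somewhat above it. Krt82 was above background in only 2 of the 4 STZ files, so dim signal limits its gap.

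The genes whose 4 arrays ran most like each of the 6 were found by the root mean square distance of their levels, after each probe was centred on its own mean over the 4 arrays. Kcne1 and Entpd3 were the closest of the 6 to each other (distance 0.20 log2 units), while Dsg4 was 0.39 from Gprc5d and Actbl2 at least 0.60 from any other. Nearest to Dsg4 were Ly6g6d (0.16), Padi3 (0.25) and Nat8f5 (0.34). Nearest to Gprc5d were Padi3 (0.21), Mt4 (0.28) and Vsig8 (0.28). Padi3, a peptidylarginine deiminase, thus stood near both. Nearest to Entpd3 were Rnf180 (0.14), Cldn14 (0.21) and Bmp8a (0.22), nearest to Kcne1 Rnf180 (0.14), S100a3 (0.27) and Bmp8a (0.32), and nearest to Fbp1 S100a3 (0.15), Rnf180 (0.34) and Bmp8a (0.35). Rnf180 and Bmp8a were thus near all 3 of these genes, and no gene was listed both for them and for Dsg4 or Gprc5d. Actbl2 had Krt40 (0.26), Krtap31-1 (0.58) and S100a3 (0.63) nearest. Large differences make such distances small for any probe that is equally low, and all points are the same 4 arrays.

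Families and pathways of the 6 genes and of Crym were described next. The genes of a list, unlike the 6, were not each picked for a large difference, so smaller values are no finding. Many of those named below were picked, as the up to 4 of a list with the smallest unadjusted p in limma's fit. Their values are therefore not typical of their lists. The lists themselves were drawn up with earlier results of these data known. In 9 lists drawn up for them, 86 genes were tested, with a median difference of −0.07, and none passed limma's test after Benjamini-Hochberg adjustment over all probes (lowest adjusted p = 0.104). Across all tested probes none passed either (0 of 21527, 0.0%), while 757 were lower (3.52%) and 1572 higher (7.3%) at an unadjusted p under 0.05. Lower probes made up 32.5% of those, against 48.2% after quantile normalization, 54.2% with normexp and 47.2% with scaling to the median spot. At that threshold 10 of the 86 genes were lower and 7 higher. With sham array 1 left out these counts were 6 and 5, with sham array 2 left out 6 and 1, with STZ array 1 left out 15 and 14, and with STZ array 2 left out 8 and 4. Over all probes they were 367 and 1031, 305 and 677, 1094 and 5380, and 760 and 1245 in the same order. Scaled to the median spot, 7 of the 86 passed after adjustment, 6 lower and 1 higher, and 1222 of all probes passed.

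Of the desmosome, the junction that Dsg4 helps to build, 7 genes were tested and all 7 were below the median probe, with a median of −0.82. That direction rested on STZ array 2: the median was 0.11 with it left out, and −2.07 with STZ array 1 left out. Dsc2, a desmocollin that pairs with desmogleins, had a level of 3.34 and 4.31 in sham and of 0.66 and −0.51 in STZ, a difference of −3.98 ± 0.63 (unadjusted p = 0.00193 and adjusted p = 0.159, limma). It was the only gene of the list at an unadjusted p under 0.05. The desmocollin Dsc3 and the plaque protein gene Jup had differences of −0.94 ± 0.91 and −0.82 ± 0.81, but of 0.52 and 0.47 with STZ array 2 left out, so their direction rested on that array. Their gaps between the STZ arrays were 2.52 and 2.19, near that of Dsg4, and Pkp3, a plakophilin, had a gap of 2.21 with a difference of −1.96 ± 0.82. Perp, a tetraspan protein of desmosomes, had a difference of −0.20 ± 0.44. No probe was matched to Dsg1, Dsg2 or Dsg3, the other desmogleins, so Dsg4 could not be set beside them.

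Of the Gprc5 family only Gprc5a was tested, with a level of 0.92 and 1.03 in sham and of 0.27 and −0.31 in STZ, a difference of −1.22 ± 0.45 (unadjusted p = 0.0793 and adjusted p = 0.523, limma). As Gprc5d is also known from plasma cells, the plasma cell markers are given beside it. Of 6 tested, 3 were lower and 3 higher, with a median of −0.09, and their summed level was 25.9 and 17.1 in sham and 27.0 and 18.2 in STZ. Most of that sum was Xbp1 (3.94 and 3.52 in sham, 4.32 and 3.73 in STZ) and Sdc1 (3.03 and 2.11, 2.58 and 0.86). It thus says little about the dimmer markers. Tnfrsf17, a receptor of plasma cells, had a difference of 2.35 ± 0.80 and was above background in 1 sham file and 4 STZ files. The part of plasma cells in the Gprc5d values was not tested.

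Among 13 tested actins and actin-like genes, the median difference was 0.39 (0.00 with normexp and −0.06 to 0.93 with an array left out), with 2 higher and none lower at an unadjusted p under 0.05. Actb, the cytoplasmic beta-actin, had a level of 4.12 and 5.19 in sham and of 5.37 and 3.76 in STZ, so its groups overlapped. Its difference of −0.32 ± 0.74 turned to 0.68 with STZ array 2 left out and to 0.19 with sham array 2 left out. Actc1, the cardiac alpha-actin that immature skeletal muscle also makes, was 2.41 ± 0.83 higher (unadjusted p = 0.0244 and adjusted p = 0.362). Of 8 mature skeletal muscle markers, 6 were below the median probe, with a median of −0.34. At an unadjusted p under 0.05, 0 of them were lower and 1 higher, Mb at 1.20 ± 0.51. Their summed level was 455 and 640 in sham and 535 and 640 in STZ. Actins share much of their sequence, and whether the Actbl2 probe also binds other actin transcripts was not tested.

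Of the 5 tested relatives and partners of Kcne1, the channel gene Kcnq1 itself had a level of −0.88 and −1.74 in sham and of −3.10 and −2.88 in STZ. Its difference was −1.91 ± 0.50 (unadjusted p = 0.0199 and adjusted p = 0.333, limma), and it was the only one of the 5 at an unadjusted p under 0.05. The median of the 5 was 0.85, but 0.12 after quantile normalization and 0.22 with STZ array 2 left out. Among the other Kcne subunits, Kcne2 had a difference of −0.09 ± 0.44 and Kcne3 one of 1.04 ± 0.52. Kcne4 had a difference of 1.05 ± 0.69 and was above background in 1 sham file and 4 STZ files.

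The ectonucleotidases other than Entpd3 had a median difference of 0.28 over 10 tested genes, none of them lower at an unadjusted p under 0.05. The median was −0.13 with STZ array 1 left out, 0.01 with sham array 2 left out and 0.56 with STZ array 2 left out, so it had no settled direction. Enpp3, a nucleotide pyrophosphatase of basophils, mast cells and epithelia, was 1.62 ± 0.48 higher, and Enpp2, the autotaxin gene, had a difference of −1.22 ± 0.42. Entpd1, the ectonucleotidase of leukocytes and endothelium, had a difference of 0.80 ± 0.64, which was −0.12 with STZ array 1 left out. Of 16 tested receptors for nucleotides and adenosine, 3 were higher at an unadjusted p under 0.05, the channel P2rx4 and the adenosine receptors Adora2a and Adora2b, by 1.51 ± 0.54, 1.22 ± 0.48 and 1.70 ± 0.59. The 1 lower was P2ry4, a receptor for UTP, at −2.56 ± 0.48 (unadjusted p = 0.00463 and adjusted p = 0.201, limma). Macrophage and T cell markers moved with the higher receptors. All 9 of the macrophage list lay above the median probe, 8 of them higher at an unadjusted p under 0.05, with a summed level of 77.9 and 38.3 in sham and of 274 and 394 in STZ. All 7 of the T cell list were higher at that threshold, with a summed level of 1.83 and 1.42 in sham and of 9.18 and 15.1 in STZ. Over all probes 7.3% were higher and 3.52% lower at that threshold, and none passed after adjustment. The part of macrophages and T cells in the receptor values was not tested.

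Around Fbp1, 17 genes of gluconeogenesis and of the fructose bisphosphate step were tested. They had a median of −0.28 (−0.77 to −0.47 with an array left out and −0.09 with normexp), 4 were lower at an unadjusted p under 0.05 and none higher. Fbp2, the muscle form of the same enzyme, had a level of −0.01 and 0.57 in sham and of −0.99 and −1.63 in STZ, a difference of −1.81 ± 0.50 (unadjusted p = 0.0239 and adjusted p = 0.358, limma). Pfkfb1 and Pfkfb2, which make and break the regulator of that step, had differences of −2.32 ± 0.45 and −1.94 ± 0.52. Pck1, the first committed enzyme of gluconeogenesis, had a level of 5.18 and 5.14 in sham and of 0.68 and 3.16 in STZ, a difference of −3.47 ± 0.89. Unlike Fbp1, it was the lower on STZ array 1. Fat cells also use Pck1, and of their markers 6 of 6 tested were below the median probe, with a summed level of 160 and 197 in sham and of 45.9 and 75.5 in STZ. Their part in the Pck1 value, and in that of the lipogenic gene Thrsp below, was not tested. G6pc1 and G6pc3, glucose-6-phosphatases, had differences of −0.11 ± 0.69 and −0.05 ± 0.43, and the aldolase Aldoa one of −0.34 ± 0.45.

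Crym encodes a protein that binds thyroid hormone in the cytosol, and genes of that hormone's handling were followed in its place. Of 12 tested, 11 were below the median probe, with a median of −0.97 (−0.57 with STZ array 2 left out and −0.62 with normexp), and 3 were lower at an unadjusted p under 0.05. Dio3, the deiodinase that inactivates thyroid hormone, had a level of 3.50 and 2.26 in sham and of −1.72 and −1.87 in STZ. Its difference of −4.91 ± 0.57 (unadjusted p = 0.00044 and adjusted p = 0.104, limma) was the closest to those of the 6 genes in any of the 9 lists. Thrsp, a lipogenic gene that the hormone induces, had a difference of −3.61 ± 0.45, and Thra, a receptor of the hormone, one of −1.43 ± 0.45. The receptor Thrb and the activating deiodinase Dio1 had differences of −1.17 ± 0.52 and −1.17 ± 0.51. As the enzyme activity of the Crym protein lies in lysine breakdown, 5 genes of that pathway were tested as well, and their median was 0.43 (−0.05 after quantile normalization and −0.11 with STZ array 2 left out). The highest of them was Pipox, at 1.09 ± 0.46.

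**Figure D3:**
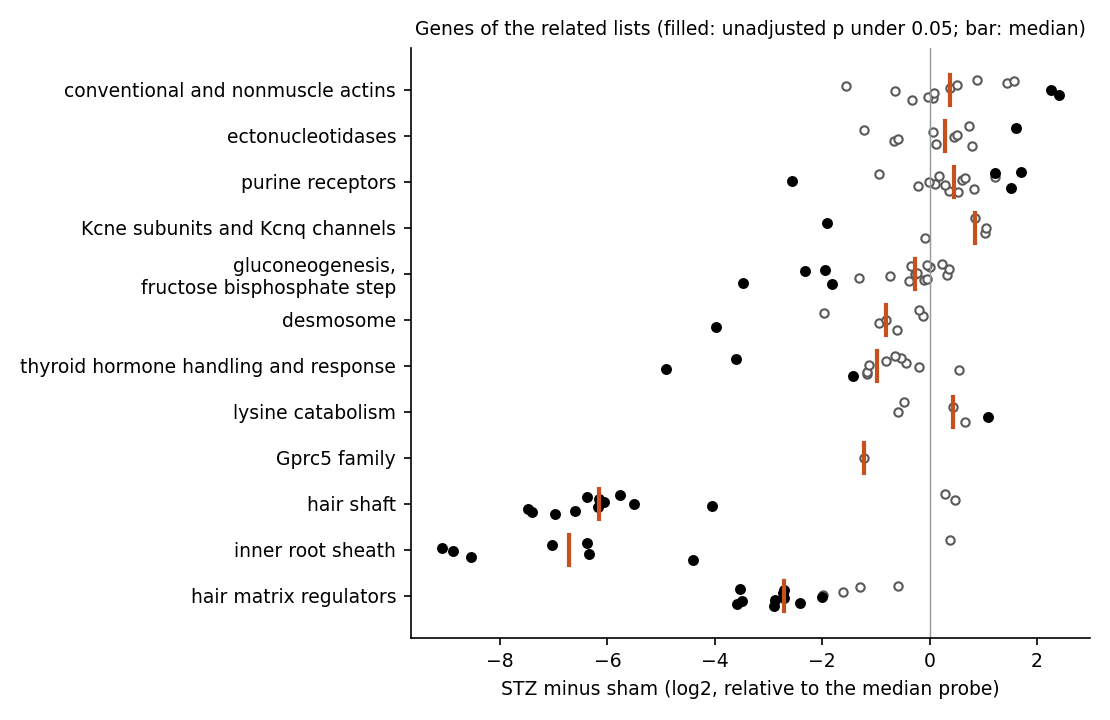
STZ minus sham difference (log2, relative to the median probe) of each tested gene in 9 lists related to the genes and in 3 hair lists, 1 row per list. Filled points have an unadjusted p under 0.05 in limma's fit, open points do not, and bars are list medians. The bars of the 9 related lists lie between −1.22 and 0.85, and those of the hair lists at −6.15, −6.71 and −2.72.

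The genes that flank the 6 on their chromosomes were compared with them. The 3 nearest tested protein-coding genes on each side, 36 in all, had a median difference of −0.25, and 19 of them lay within 1 of the median probe. At an unadjusted p under 0.05, 3 were lower and 1 higher (limma, lowest adjusted p = 0.159), against 3.52% and 7.3% of all probes. The lower flanking genes were Dsc2, near Dsg4, Fbp2, next to Fbp1, and Gsg1, a germ cell gene near Gprc5d, at −3.40 ± 0.63. Dsc2, which had the lowest adjusted p, and Fbp2 were already counted in the lists above. The higher flanking gene was B4galt6, near Dsg4, at 1.13 ± 0.48. Around Entpd3 the closest genes were Eif1b (−0.26 ± 0.44) and Rpl14 (0.00 ± 0.47), and around Actbl2 they were Plk2 (−1.04 ± 0.42) and Gpbp1 (−0.61 ± 0.42). Rcan1, next to Kcne1, had a difference of −1.03 ± 0.50, and Hebp1, next to Gprc5d, one of −0.05 ± 0.42.

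**Figure D4:**
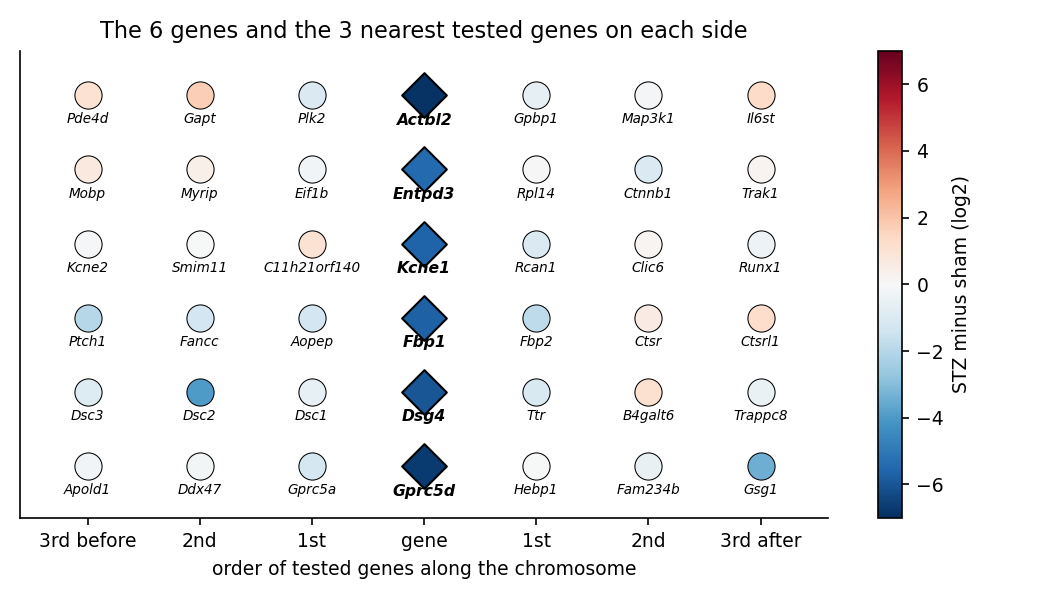
Each row shows 1 of the 6 genes (diamond) and the 3 nearest tested genes on each side (circles) in their order along the chromosome, not to distance. The colour gives the STZ minus sham difference (log2, relative to the median probe), blue for lower. The diamonds lie between −6.92 and −5.42, and the bluest circles are Dsc2 (−3.98) and Gsg1 (−3.40).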

How the data were processed

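Total RNA of skin was labelled with Cy3, and per the file headers Agilent's Feature Extraction software, version 11.0.1.1, read the spots (11.0.0.1 in the submitters' processing notes). The deposited intensity of each spot is the scanner software's processed signal, background-subtracted and not normalized between arrays. The deposited median spot and background intensities, used with normexp (offset 50), are uncorrected. Flags per spot are also from the files.

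Log2 processed signals had the 75th percentile of the 42136 noncontrol spots subtracted per file, spots of a probe were averaged without flagged outliers, and rescans, which shared an array position in the headers, were averaged. Deviations of single spots from their probe's mean had correlations of 0.988 to 0.995 between rescans and of at most 0.755 otherwise. Of 24684 probes, 21527 passed the filter (called above background in 4 or more of 8 files) and were fitted (lmFit and eBayes, limma 3.58.1, R 4.3.3, 2 residual and 3.01 prior degrees of freedom), two-sided, with Benjamini-Hochberg adjustment over all of them. A p tests the difference before the median probe's shift is taken off. An exact permutation test of 2 against 2 arrays could not go below 0.333. The number of arrays limits the precision. The fit was tested on simulated data. No spot was saturated.

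Accessions were named through RefSeq's rat gene table (GRCr8), 14274 of 15321 coding ones, and a gene in a list was read from its brightest probe. Windows on opposite strands that overlapped matched as reverse complements in 1480 of 1480 pairs. Named were the 6 genes, up to 4 genes per related list by p and set partners, the 3 nearest genes by distance, and others by list or by position. Markers and exceptions to a list, the flanking genes and the motifs were chosen outside that rule, after values were seen. The genes and lists were chosen with earlier results of these data known. Alternatives were other scalings, background correction and filters, single scans, scans as samples, a block and each array left out.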

Additional observations from a re-analysis of the deposited data

How the results depend on the processing

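The differences of the 6 genes kept their direction under all 15 other settings, and their median ran from −6.01 to −5.16 under the 11 that left out no array (−5.16 with normexp and quantile normalization, −5.85 and −5.88 in the first and second scans alone). With each array left out in turn it ran from −6.87 to −5.17. The counts over all probes moved more. Past the adjusted threshold were 1222 probes with scaling to the median spot, 5236 with the 8 files taken as separate samples, which counts rescans as replicates, and 0 to 49 with an array left out. Lower at an unadjusted p under 0.05 were 1149 after quantile normalization, 1354 with normexp, 1390 with scaling to the median spot, 3319 with the files as samples and 305 to 1094 with an array left out. Higher were 5317 with the files as samples and 677 to 5380 with an array left out. Of the 86 related genes, 22 were lower and 23 higher with the files as samples, 6 to 15 and 1 to 14 with an array left out, and 4 were higher with scaling to the median spot. With each array left out in turn, the difference ran from −1.28 to 0.68 for Actb (0.19 without sham array 2), −2.35 to 0.52 for Dsc3, −2.07 to 0.47 for Jup, −0.12 to 1.77 for Entpd1 and −0.11 to 1.01 for Hykk of lysine breakdown, so their directions turned. That of Hykk was also −0.05 after quantile normalization. The cause of these moves was not tested. With the replicate number as a block, 589 probes were lower and 1568 higher, none past adjustment, and 9 and 5 of the related genes, and it moved no count by over 1.5 times. Deviations of same-numbered arrays were only weakly and negatively correlated (−0.20 over probes). With the numbers crossed, a fit added after the data were seen, the counts were 761, 2082, 9 and 9. Dim signals limit Actbl2 most, which stood 1.14 log2 units above the floor on STZ array 2.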
